A study of Mus musculus with 8 samples.

Results

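The genes described here are 36 mouse genes of protein folding in the endoplasmic reticulum (ER) and of the unfolded protein response, out of 41730 rows of a gene count table. They were chosen by symbol from knowledge of the pathway, with earlier results of these data known. They comprise stress sensors, chaperones, disulfide isomerases, genes of ER-associated degradation, the translocon and the phosphatase subunits that end the translational arm. Of these genes 35 were found under their listed symbol and Ero1l under its current symbol, Ero1a. RNA was sequenced from 8 libraries of CD8+ T cells of OT-I mice, whose transgenic receptor recognises the ovalbumin peptide SIINFEKL. The cells had been cultured with dendritic cells grown from bone marrow of LXR-/- mice and pulsed with that peptide, and were then sorted by flow cytometry. The control group (4 libraries) received the solvent DMSO and the treated group (4 libraries) received 2 µM RGX-104, a synthetic agonist of the liver X receptors (LXR). The dendritic cells lacked LXR in both groups, and the labels give the T cells no genotype other than OT-I. The labels do not say how many animals or cultures the libraries came from, so p-values measure the spread between these libraries, which may be technical. RGX-104 replicates are numbered here by table column, because the column names gave the group and not the sample.

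The unfolded protein response balances the load of new secretory and membrane proteins against the folding capacity of the ER. Its sensors are IRE1 (gene Ern1), PERK (Eif2ak3) and ATF6 (Atf6). IRE1 splices the Xbp1 transcript, PERK phosphorylates the translation factor eIF2alpha, and ATF6 is cleaved to a transcription factor, and together these raise chaperones, isomerases and degradation genes. IRE1 and PERK are also known to sense the saturation of the ER membrane, which links the pathway to the fatty acid desaturases, and those in turn are classical targets of LXR and SREBP1c. Activated CD8+ T cells use the same pathway while they enlarge their ER to make effector proteins.

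Several of these genes share promoter letters. The genes were chosen as known members of the pathway, and the motifs searched are known elements of it. The shares below are therefore description, and their excess over all genes is no independent result. The ER stress response element (ERSE) is the site recognised by NF-Y together with ATF6 or XBP1. Its letters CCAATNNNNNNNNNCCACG were searched on both strands of the 250 bases before and 50 bases after each start site in the RefSeq promoter table (GRCm38.p6), where 30 of the 36 genes had an entry. An exact match was present in 9 of those 30 genes (30%), against 37 of the 27025 genes with an entry (0.137%), and in 0.119% of all promoters. The 9 genes were 24.3% of all genes with a match. The related element ERSE-II (ATTGG, 1 free base, then CCACG) matched Dnajb11 and Herpud1 (6.67% of the 30 genes, and 0.0444% of all genes). The XBP1 site UPRE, searched as TGACGTGG, matched Vcp only (3.33%, and 0.714% of all genes). ERSE and ERSE-II share the letters CCACG and, on opposite strands, CCAAT, but no promoter of these genes held more than 1 of the 3 motifs. A match describes letters and not a bound site. Atf6, Derl1, Hyou1, Manf, Ppp1r15b and Sec61a1 had no entry. The ERSE and ERSE-II matches are shown, without the UPRE match of Vcp, with 10 bases on either side, because they are the feature that several chaperone genes have in common. Capitals mark the matched letters, without the 9 free bases inside the ERSE, and a match on the reverse strand begins with CGTGG.

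Hspa5 (chr2:34772015-34772053, plus strand): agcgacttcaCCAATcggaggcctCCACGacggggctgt

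Hsp90b1 (chr10:86705628-86705666, minus strand): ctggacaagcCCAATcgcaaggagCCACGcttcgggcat

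Hsp90b1 (chr10:86705523-86705561, minus strand): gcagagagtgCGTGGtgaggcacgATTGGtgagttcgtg

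Calr (chr8:84847065-84847103, minus strand): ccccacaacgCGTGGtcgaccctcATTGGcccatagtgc

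Canx (chr11:50325790-50325828, minus strand): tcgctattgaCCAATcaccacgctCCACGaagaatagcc

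Dnajc3 (chr14:118937817-118937855, plus strand): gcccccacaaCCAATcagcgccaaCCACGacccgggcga

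Creld2 (chr15:88819510-88819548, plus strand): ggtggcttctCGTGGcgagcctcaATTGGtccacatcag

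Pdia6 (chr12:17266481-17266519, plus strand): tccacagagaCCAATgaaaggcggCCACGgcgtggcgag

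Syvn1 (chr19:6046522-6046560, plus strand): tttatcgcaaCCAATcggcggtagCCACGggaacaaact

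Derl3 (chr10:75893232-75893270, plus strand): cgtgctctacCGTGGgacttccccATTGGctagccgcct

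Dnajb11 (chr16:22857842-22857872, plus strand): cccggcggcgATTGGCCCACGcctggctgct

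Herpud1 (chr8:94386367-94386397, plus strand): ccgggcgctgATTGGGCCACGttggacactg

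The whole window of Hspa5, the gene of the chaperone BiP that is the usual reporter of the response, lies at chr2:34771840-34772139 on the plus strand. It is shown because the spacing of its ERSE, from 65 bases before the start site, can be read in it.

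Hspa5: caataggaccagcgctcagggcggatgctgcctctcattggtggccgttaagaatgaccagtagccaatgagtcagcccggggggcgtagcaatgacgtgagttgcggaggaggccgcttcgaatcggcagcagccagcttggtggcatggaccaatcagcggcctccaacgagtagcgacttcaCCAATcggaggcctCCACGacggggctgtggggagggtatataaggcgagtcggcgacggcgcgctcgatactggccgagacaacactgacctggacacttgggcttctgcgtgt

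**Figure D1:**
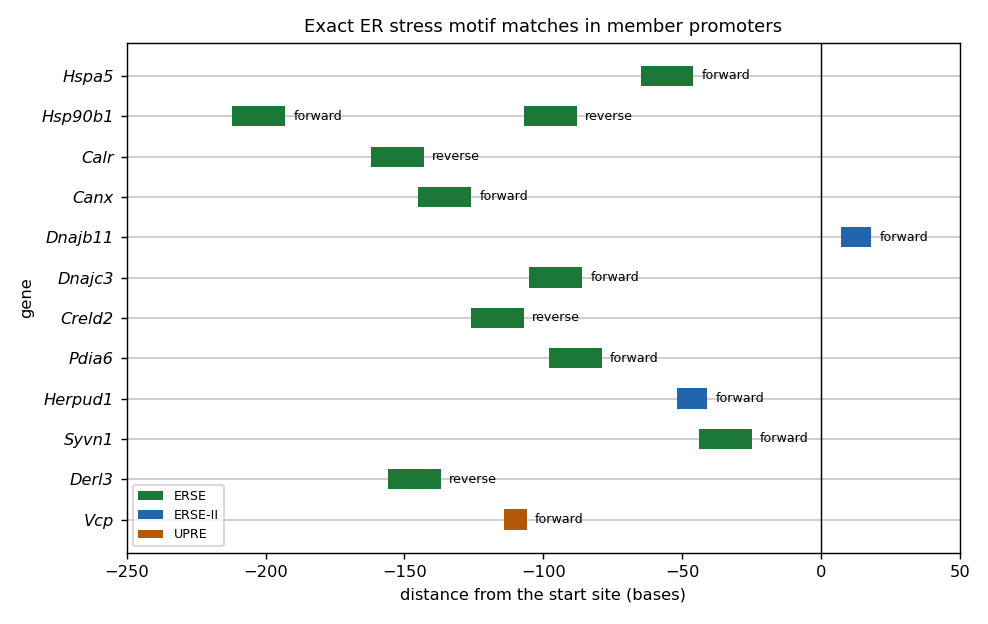
Position of each exact motif match in the promoters of the genes described here, with distance from the annotated start site in bases on the horizontal axis and 1 line per gene. Bars span the matched motif (green ERSE, blue ERSE-II, orange UPRE) and "forward" or "reverse" gives its strand. The ERSE matches lie between 212 bases (Hsp90b1) and 44 bases (Syvn1) before the start site, and the ERSE-II of Dnajb11 lies after it.

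Library totals ranged from 30642316 to 37714355 counts, and 13290 genes had enough counts to be tested. Levels are given as CPM, the usual count scaled to library size, here after scaling by the trimmed mean of M values (TMM), and changes as RGX-104 minus control on the log2 scale with a standard error (SE) from edgeR. A gene is called when its edgeR p, adjusted over all tested genes by the Benjamini-Hochberg method, is under 0.05. T cell markers were abundant, with Cd8a at 877 and Cd3e at 325 CPM in controls. Cd2 was at no more than 6 counts. Whether reads were left uncounted is not known, so a marker near 0 counts is not read as absent. Of 7 tested T cell markers 1 was called higher (Lck) and 4 lower (Cd3e, Cd8a, Cd8b1 and Cd247). Over all tested genes 4.82% were called higher and 4.13% lower. The sum of the T cell list was 2438 CPM with DMSO and 2277 CPM with RGX-104. The 12 myeloid and dendritic cell markers summed to 1.402 to 2.09 CPM with DMSO and 1.61 to 2.35 CPM with RGX-104. Lyz2 was at no more than 5 counts and Clec9a at no more than 1. The 2 of these markers that were tested had log2 changes above 0 (0.253 and 0.367), and 0 were called. B cell and plasma cell markers, of interest here because plasma cells carry a large ER, summed to 11.4 to 13.2 CPM with DMSO and 9.65 to 11.3 CPM with RGX-104. Most of that sum was Cd79b and Sdc1, of which Sdc1 was lower (edgeR adjusted p = 0.00310), while Ms4a1 had 0 counts, Pax5 at most 1 and the plasma cell chaperone gene Mzb1 at most 16. The part of these markers in the results below was not tested.

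Few of the ER genes differed between the groups. Of the 36 genes 35 were tested, 1 was called higher (Dnajc10) and 1 lower (Sec61a1). Over all tested genes 4.82% were called higher and 4.13% lower, so both counts lie near the background. At an unadjusted p under 0.05 there were 2 higher and 7 lower, against 11.5% and 10.7% of all tested genes. The 4 RGX-104 libraries lay wholly above the 4 control libraries in 2 genes (7.07% of all tested genes) and wholly below them in 3 (7.45%). The log2 change was above 0 in 14 and below 0 in 21, where 50.4% of all tested genes were above 0. Its median was -0.0099 over the 35 genes and 0.00072 over all tested genes, and turned to 0.0019 and 0.0011 for the 35 genes with upper quartile scaling and with library totals. RNA of sorted cells in bulk cannot tell a smaller number of high-expressing cells from less RNA per cell, and this holds for each difference below.

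Most of these genes were abundant, and their intervals were narrow. The 95% confidence interval of the fold change lay within 1.1-fold in either direction in 25 of the 35 genes, and within 1.2-fold in 31. Over all tested genes these shares were 35.8% and 62.3%. The genes whose interval reached past 1.2-fold were Dnajb9, Derl2, Derl3 and Ppp1r15a, which were among the lowest in counts. The median SE was 0.029 on the log2 scale for the 35 genes and 0.049 for all tested genes. RefSeq places 14 of the genes across another gene, and as the strand setting of the counting is not known here their counts may hold reads of the neighbour. These are Eif2ak3, Atf6, Hspa5, Dnajb11, Dnajc3, Pdia3, Pdia4, Pdia6, Syvn1, Derl2, Edem1, Os9, Ufd1 and Ppp1r15a.

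**Figure D2:**
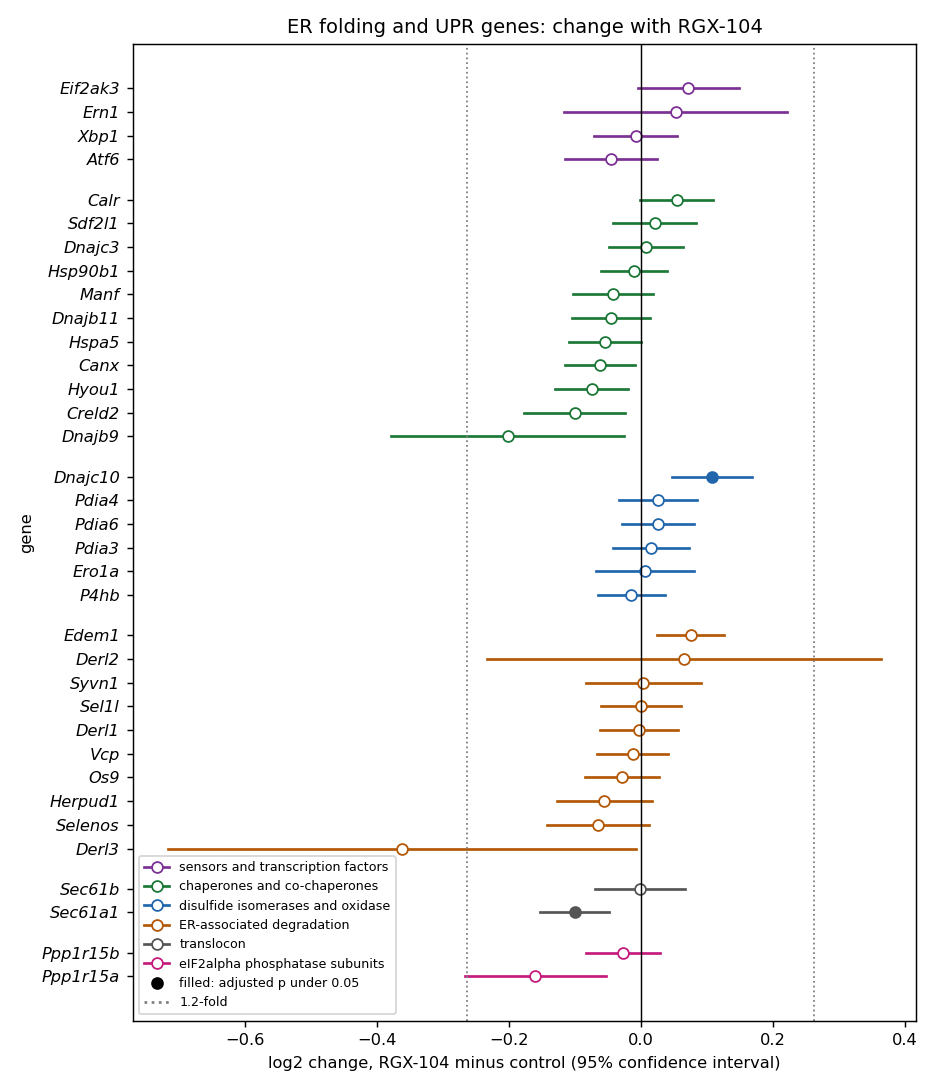
Log2 change (RGX-104 minus control, horizontal axis) of the 35 tested genes, ordered within their roles, with points for the edgeR estimate and lines for the 95% confidence interval. Filled points passed the adjusted threshold and dotted lines mark 1.2-fold. Only Dnajc10 (0.11) and Sec61a1 (-0.10) are filled, and most intervals cross 0.

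None of the 3 ER sensor genes passed the test, also at an unadjusted p. Ern1, the gene of IRE1, was at 9.69, 9.94, 7.56 and 8.01 CPM in the control libraries and 8.87, 9.17, 9.59 and 8.80 CPM with RGX-104. Its groups overlapped, and the log2 change was 0.053 (95% interval -0.12 to 0.22; edgeR adjusted p = 0.761). Eif2ak3, the gene of PERK, was at 47.0, 48.3, 48.0 and 48.0 CPM in controls and 47.0, 51.5, 52.5 and 50.1 CPM with RGX-104. In this gene 3 of the RGX-104 libraries lay above every control library, and RGX-104 replicate 1 lay among the controls (log2 change 0.072, -0.0047 to 0.15; edgeR adjusted p = 0.260). Atf6 was at 55.9, 55.4, 53.1 and 55.2 CPM against 54.4, 52.1, 53.1 and 53.2 CPM. Its groups overlapped, with a change of -0.045 (-0.11 to 0.025; edgeR adjusted p = 0.464).

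Xbp1, the transcription factor gene whose transcript IRE1 splices, was at 106, 112, 114 and 116 CPM in controls and at 113, 111, 109 and 113 CPM with RGX-104. The RGX-104 libraries all lay inside the control range, and the change of -0.0080 had an interval of -0.071 to 0.055 (edgeR adjusted p = 0.913). The table holds 1 count per gene, so the spliced form of Xbp1 was not analysed here. The 4 sensor and transcription factor genes summed to 223 ± 3.57 CPM with DMSO and 224 ± 1.08 CPM with RGX-104 (SD over 4 libraries each).

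Chaperone genes were the most abundant role in summed CPM. Hspa5 encodes BiP, the ER Hsp70 that holds the sensors inactive, and lies on chromosome 2 from 34772090 to 34776529 (GRCm38). It was at 915, 909, 933 and 967 CPM in controls and 914, 884, 878 and 911 CPM with RGX-104. RGX-104 replicates 2 and 3 were below every control, replicates 1 and 4 were among them, and the change of -0.054 (-0.11 to 0.00040) did not pass (edgeR adjusted p = 0.229). Hsp90b1, the gene of the ER Hsp90 GRP94, was at 1385, 1396, 1409 and 1454 CPM against 1397, 1402, 1396 and 1410.0 CPM. Its RGX-104 libraries spanned a narrower range inside that of the controls (change -0.0099, -0.060 to 0.040; edgeR adjusted p = 0.858).

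The lectin chaperones calreticulin (Calr) and calnexin (Canx), which bind the same monoglucosylated glycans from the lumen and from the membrane, had estimates of opposite sign. Calr was at 1067, 1003, 1043 and 1094 CPM in controls and 1095, 1089, 1075 and 1108 CPM with RGX-104, and the groups overlapped (change 0.054, -0.0014 to 0.11; edgeR adjusted p = 0.239). Canx was at 907, 931, 934 and 976 CPM in controls and 904, 896, 899 and 892 CPM with RGX-104. All 4 RGX-104 libraries lay below all controls, by a small margin, and the change of -0.062 (-0.12 to -0.0089) did not pass after adjustment (edgeR adjusted p = 0.146). Whether the changes of these 2 genes differ from each other was not tested.

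Hyou1, the gene of a nucleotide exchange factor for BiP, was at 349, 348, 333 and 347 CPM in controls and 323, 321, 328 and 336 CPM with RGX-104. Control replicate 3 was low among the controls and fell within the RGX-104 range, and the change was -0.075 (edgeR adjusted p = 0.0872). Creld2, which encodes an ER protein with disulfide isomerase activity, was at 66.9, 62.9, 62.6 and 64.6 CPM against 61.8, 60.5, 55.6 and 61.9 CPM. Its groups did not overlap, and the change was -0.10 (edgeR adjusted p = 0.0970). Dnajb9, the gene of the J-domain protein ERdj4, a strongly XBP1-dependent transcript, had 210 to 319 counts per library. It was at 7.46, 8.02, 8.80 and 8.54 CPM in controls and 7.41, 5.94, 7.70 and 7.57 CPM with RGX-104. The groups overlapped, RGX-104 replicate 2 was the lowest, and the change of -0.20 (-0.38 to -0.025) did not pass (edgeR adjusted p = 0.157). Without that library the change was -0.12 (edgeR adjusted p = 0.477).

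Sdf2l1, which encodes a partner of the J-domain protein ERdj3, was at 103.6, 96.2, 101 and 102 CPM against 103, 101, 101 and 104.2 CPM, with overlapping groups (change 0.021; edgeR adjusted p = 0.738). Within the chaperone role the other J-domain genes were Dnajb11 and Dnajc3. Dnajb11 was at 156 ± 4.21 and 151 ± 2.58 CPM (DMSO and RGX-104), and Dnajc3 at 144 ± 1.70 and 145 ± 1.93 CPM (SD over 4 libraries each). Manf, the gene of a secreted ER protein that stabilises BiP complexes, was at 157 ± 5.15 and 153 ± 3.13 CPM. None of these passed (edgeR adjusted p = 0.379, 0.902 and 0.426). All 11 chaperone genes were tested, and 3 had estimates above 0 and 8 below, with 0 called. At an unadjusted edgeR p under 0.05, 0 were higher and 4 lower, where 11.5% and 10.7% of all tested genes were, and DESeq2 and limma-voom also called 0. Their summed level was 5305 ± 122 CPM with DMSO and 5233 ± 46.1 CPM with RGX-104.

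**Figure D3:**
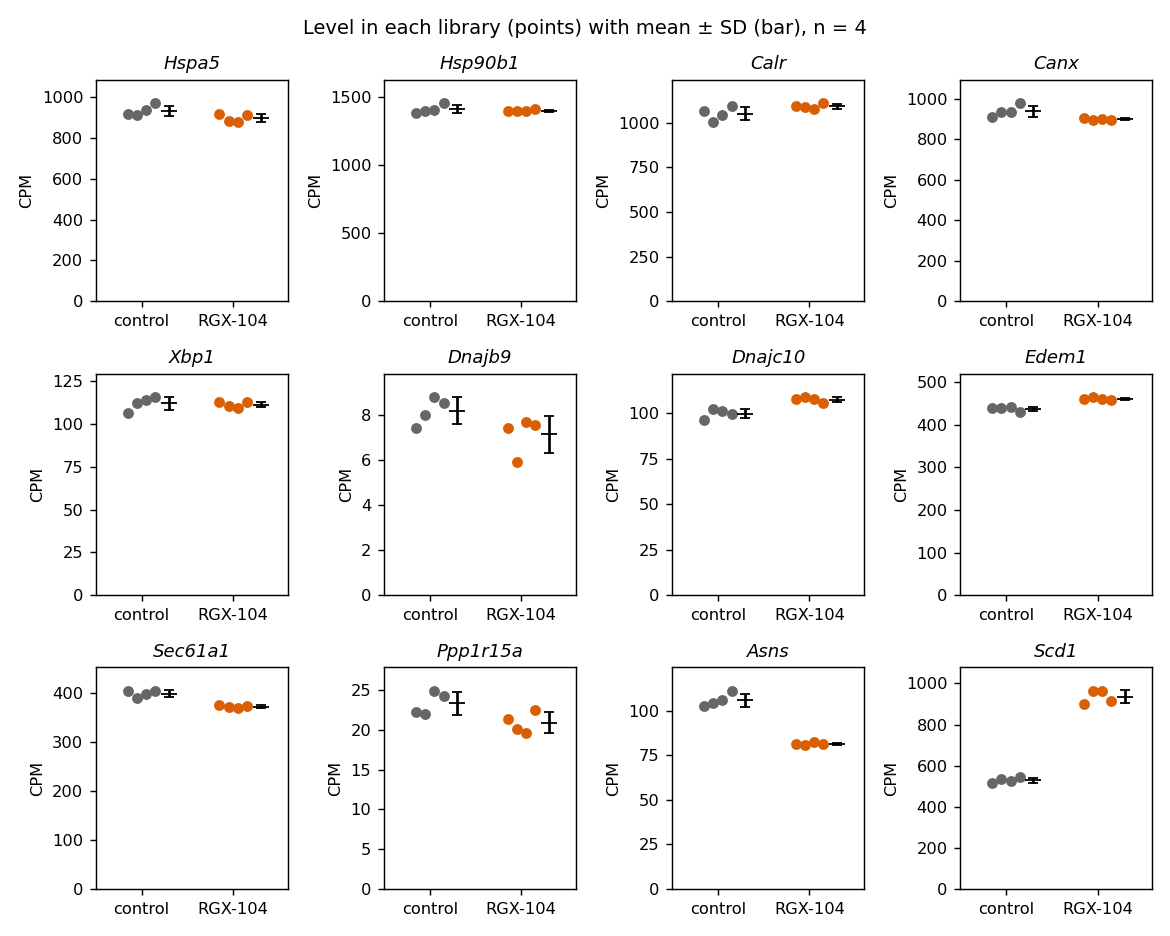
CPM (vertical axes, starting at 0) of 10 ER genes in each control (grey) and RGX-104 (orange) library, with bars for the mean ± SD of 4 libraries, and of Asns and Scd1 on the same kind of axis for scale. The chaperone and Xbp1 panels are nearly level, Sec61a1 and Dnajc10 are separated by 6.71% and 7.77% of their control level, and Scd1 is at 514 to 544 CPM in controls against 901 to 963 CPM.

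Disulfide isomerase genes included the gene called higher. Dnajc10 encodes ERdj5, a reductase that opens disulfide bonds of misfolded proteins and of the SERCA calcium pump, and lies on chromosome 2 from 80315446 to 80354055. It was at 96.2, 102, 101 and 99.8 CPM in controls and 108, 109, 108 and 106 CPM with RGX-104. All 4 RGX-104 libraries lay above all controls, and it rose by 7.77% (log2 0.11 ± 0.029, SE; edgeR adjusted p = 0.0193). The call was lost without control replicate 1 (adjusted p = 0.0526), without RGX-104 replicate 2 (0.0690) and without RGX-104 replicate 3 (0.0609), while the log2 change was 0.09 to 0.11 in these 3 fits.

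The other isomerase genes and the oxidase did not pass. Pdia4, the gene of a large luminal isomerase and a known ATF6 target, was at 181, 177, 183 and 192 CPM against 188, 188, 183 and 187 CPM, and the groups overlapped (edgeR adjusted p = 0.633). Ero1a, the oxidase that returns electrons from protein disulfide isomerase to oxygen, was at 410.4, 461, 463 and 434 CPM in controls and 439, 462, 449.6 and 426 CPM with RGX-104. Its RGX-104 libraries lay inside the control range (change 0.0063, -0.068 to 0.080; edgeR adjusted p = 0.939). P4hb, the gene of the founding isomerase, changed by -0.015 from 767 CPM, Pdia3, the partner of both lectin chaperones, by 0.015 from 809 CPM, and Pdia6 by 0.026 from 349.8 CPM (edgeR adjusted p = 0.785, 0.799 and 0.612). The isomerase and oxidase genes, 6 with Dnajc10, summed to 2651 ± 56.8 CPM with DMSO and 2672 ± 17.0 CPM with RGX-104.

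Of the 11 genes of ER-associated degradation 10 were tested and 0 were called by edgeR, with 1 higher and 1 lower at an unadjusted p under 0.05 (11.5% and 10.7% of all tested genes). DESeq2 and limma-voom each called 1 higher, Edem1. Edem1 encodes a lectin that routes misfolded glycoproteins to degradation and was the most abundant transcript of this group in CPM. It was at 438, 438, 442 and 430.2 CPM in controls and 461, 464, 459.8 and 457 CPM with RGX-104. The groups did not overlap, and the change of 0.076 ± 0.025 (log2, SE) fell just outside the threshold (edgeR adjusted p = 0.0562). It was called in 6 of 18 alternative fits, with an adjusted p of 0.0161 to 0.162 over them.

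Herpud1, which encodes a membrane organiser of the HRD1 ligase complex, was at 64.9, 66.5, 68.4 and 69.5 CPM in controls and 61.7, 64.3, 66.4 and 66.8 CPM with RGX-104. The groups overlapped (change -0.055, -0.13 to 0.016; edgeR adjusted p = 0.369). The ligase gene itself, Syvn1, and its adaptor Sel1l were at 62.7 and 62.9 CPM and at 129.8 and 129.8 CPM (DMSO and RGX-104). Neither passed, with changes of 0.0040 and 0.00073 (edgeR adjusted p = 0.968 and 0.993). Selenos, Os9, Derl1 and the extracting ATPase gene Vcp changed by -0.065, -0.029, -0.0021 and -0.012 on the log2 scale, with adjusted p from 0.317 to 0.977 (edgeR).

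The derlin genes Derl2 and Derl3, whose products form part of the retrotranslocation channel, were low. Derl3 had 33 to 60 counts per library, at 1.72, 1.21, 1.66 and 1.21 CPM in controls and 1.07, 1.13, 1.05 and 1.26 CPM with RGX-104. RGX-104 replicate 4 lay above 2 of the controls, and the change of -0.36 (-0.72 to -0.0066) did not pass (edgeR adjusted p = 0.215). Derl2 had 53 to 87 counts, at 2.02 CPM with DMSO and 2.11 CPM with RGX-104 (change 0.066; edgeR adjusted p = 0.840), and Ufd1, an adaptor of Vcp, at most 1. Both have a second row in the table, with a numbered suffix and at most 1 count, so their low counts are not read as low expression. Ufd1 was not tested, and a count of 0 allows up to 3 counts, or 0.0971 CPM in the smallest library, for counting error only.

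The translocon held the gene called lower. Sec61a1 encodes the pore subunit through which new proteins enter the ER and lies on chromosome 6 from 88503607 to 88518800. It was at 403, 390.1, 398 and 404 CPM in controls and 375, 371, 369 and 373 CPM with RGX-104. All 4 RGX-104 libraries lay below all controls, and it fell by 6.71% (log2 -0.10 ± 0.025, SE; edgeR adjusted p = 0.0117). It was called in all 18 alternative fits, with an adjusted p of 0.00100 to 0.0484. Sec61b, the gene of another subunit of the same complex, was at 68.7 ± 1.98 and 68.6 ± 1.99 CPM, and its change of -0.0012 had an interval of -0.070 to 0.068 (edgeR adjusted p = 0.988). The intervals of these 2 subunits overlap, and the difference between their changes was not tested.

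Ppp1r15a encodes GADD34, the stress-induced subunit that directs a phosphatase to eIF2alpha and so ends the PERK signal. It was at 22.2, 22.02, 24.9 and 24.2 CPM in controls and 21.4, 20.1, 19.6 and 22.5 CPM with RGX-104. RGX-104 replicate 4 lay above 2 of the controls, and the change of -0.16 (-0.27 to -0.052) fell just outside the threshold (edgeR adjusted p = 0.0550). It was called in 6 of 18 alternative fits, with an adjusted p of 0.0141 to 0.373. The constitutive subunit gene Ppp1r15b was at 273 ± 7.47 and 268 ± 2.20 CPM and changed by -0.027 (edgeR adjusted p = 0.612).

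Changes were also set side by side for genes with and without the ERSE letters, with no test of the difference. The 9 genes with an exact match had a median log2 change of -0.0099, with 4 above and 5 below 0 and 0 called. The 20 tested genes with a promoter entry and no ERSE match had a median of -0.00025, with 10 above and 10 below 0, 1 called higher and 0 lower. They include Dnajb11 and Herpud1, which matched ERSE-II, and Vcp, which matched UPRE. The range was -0.36 (Derl3) to 0.054 (Calr) with an ERSE match and -0.20 (Dnajb9) to 0.11 (Dnajc10) without. Sec61a1 had no entry and is in neither group.

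The order of the genes by level was compared per kilobase of exon, using union exon lengths of GENCODE M21 for GRCm38. Calr was highest, at 365 CPM per kilobase in controls, followed by Hsp90b1 (349.9), P4hb (268), Pdia3 (258), Hspa5 (220.2) and Canx (199.7). Pdia6 (93.4) came after these 6 genes. Of the sensors and their transcription factor Xbp1 was at 34.5, Eif2ak3 at 7.94, Atf6 at 5.95 and Ern1 at 1.08 CPM per kilobase. Neighbours such as Ppp1r15a (7.94) and Eif2ak3 were not distinguishable by level, and exon lengths that include unused exons lower a gene's value.

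**Figure D4:**
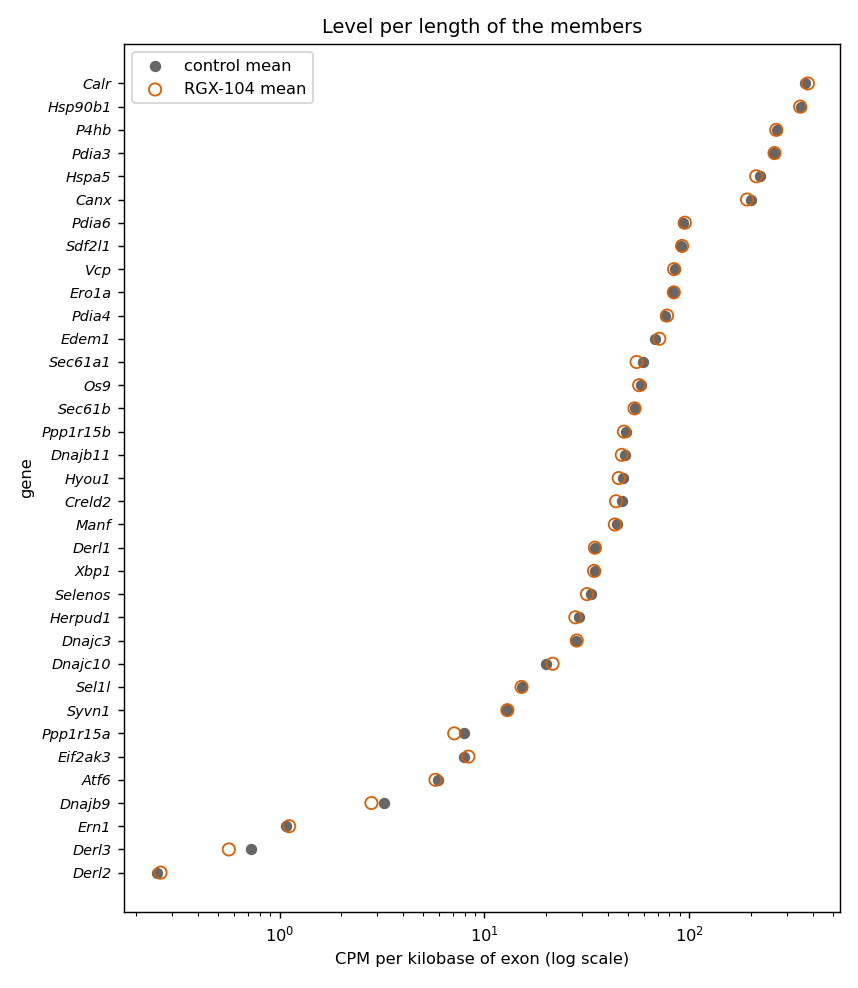
Mean level of each of the 35 tested genes in CPM per kilobase of exon (horizontal log axis) in control (filled grey) and RGX-104 (open orange) libraries, ordered by the control mean. The 2 symbols overlie for most genes, and visible separations are those of low genes such as Dnajb9 (3.22 and 2.81) and Derl3 (0.727 and 0.565).

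The median coefficient of variation of the 35 genes was 2.89% in control and 1.79% in RGX-104 libraries, and it was larger in controls for 26 of them. Control replicate 4 was the highest control in 16 of the 35 genes, against 29.0% of all tested genes, with Hspa5, Hsp90b1, Calr, Canx, Pdia3, Pdia4 and Xbp1 among them. RGX-104 replicate 4 was the highest of its group in 15 (24.5% of all tested genes) and RGX-104 replicate 3 the lowest in 14 (24.0%). The 36 genes summed to 10630.5 CPM in control replicate 4 and to 10228 to 10381 CPM in the other controls, against 10232 to 10352 CPM in the RGX-104 libraries. Without control replicate 4, edgeR again called 1 of these genes higher and 1 lower, and the median log2 change was -0.0050. It was -0.019 without control replicate 1, the value farthest below 0 when 1 library was left out.

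Other genes of these compartments, from lists made for the pathway, are read against the same background, with 4.82% of all tested genes called higher, 4.13% lower and 50.4% with an estimate above 0. The lists were made with earlier results of these data known, so their counts are description. Of 18 tested genes of translocation into the ER 0 were called higher and 2 lower, with 16 estimates below 0. These were Ssr3, a translocon-associated protein gene (-0.10; edgeR adjusted p = 0.0330), and Srpr, the gene of the signal recognition particle receptor (-0.10; 0.0290). Of 17 genes of ER exit and retrieval 0 were higher and 1 lower, the COPII GTPase gene Sar1a (-0.093; edgeR adjusted p = 0.0366), with 15 estimates below 0. Of 17 glycan processing and oligosaccharyltransferase genes 0 were higher and 1 lower, Krtcap2 (-0.13; edgeR adjusted p = 0.00827). The medians of these 3 lists were -0.019, -0.043 and -0.013, beside -0.0099 for the 35 genes. With upper quartile scaling the median of all tested genes moved from 0.00072 to 0.013, and that of the 35 genes from -0.0099 to 0.0019. Estimates as near 0 as the latter can change sign with the scaling. The medians of the 3 lists above were not computed under other scalings.

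Of 21 further genes of folding and the stress response 19 were tested. Atf6b had 0 counts in every library and Fkbp2 at most 3, and these counts are not read as low expression. Of the 19 tested genes 2 were called higher and 2 lower (4.82% and 4.13% of all tested genes), with a median of -0.029. The lower genes were Stc2, which encodes a secreted glycoprotein induced by PERK signalling, from 2.69 ± 0.201 to 1.61 ± 0.450 CPM (edgeR adjusted p = 0.00238), and the isomerase gene Pdia5, from 5.47 ± 0.201 to 3.71 ± 0.389 CPM (edgeR adjusted p = 2.46e-04). The higher genes were Wfs1, the gene of an ER membrane protein, from 4.11 ± 0.191 to 5.17 ± 0.198 CPM (edgeR adjusted p = 0.0190), and Erp44, which encodes a retrieval chaperone, from 112 to 123 CPM (edgeR adjusted p = 0.0271). Bloc1s1, a transcript that IRE1 is known to cleave, was at 7.71, 6.90, 8.30 and 7.82 CPM in controls and 6.70, 6.90, 7.49 and 6.597 CPM with RGX-104, with overlapping groups (edgeR adjusted p = 0.271).

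The integrated stress response list had 0 of 18 genes called higher and 6 lower, where 4.82% and 4.13% of all tested genes were, with a median of -0.057. Whether PERK acts on these genes here was not tested. Atf4, its transcription factor, was at 367, 339, 350.2 and 377 CPM in controls and 395, 376, 368 and 394 CPM with RGX-104, and did not pass (change 0.096; edgeR adjusted p = 0.0711). Ddit3, the gene of CHOP, the ATF4 target used as a marker of ER stress, was at 14.97, 13.7, 14.1 and 12.3 CPM against 13.5, 13.8, 15.3 and 13.9 CPM. Its groups overlapped (change 0.040, -0.090 to 0.17; edgeR adjusted p = 0.765), and so did those of Chac1, at 6.38 ± 0.466 and 6.40 ± 0.500 CPM (edgeR adjusted p = 0.989). Trib3, which encodes a pseudokinase induced by ATF4 and CHOP, fell from 20.5 ± 0.748 to 17.96 ± 0.822 CPM (edgeR adjusted p = 0.0146). Asns, asparagine synthetase, fell from 106 ± 3.67 to 81.6 ± 0.644 CPM, and Cebpb from 7.06 ± 0.800 to 5.73 ± 0.150 CPM (edgeR adjusted p = 1.58e-09 and 0.0290).

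Genes of lipid desaturation, elongation and phospholipid remodelling included larger changes in the same libraries. This list too was made with earlier results of these data known, so its counts are no independent result. Of 24 tested genes 7 were called higher and 0 lower, where 4.82% and 4.13% of all tested genes were. The log2 change was above 0 in 18 and below 0 in 6, from -0.775 to 0.82, where 50.4% of all tested genes were above 0. The list summed to 5844 ± 74.0 CPM with DMSO and 7811 ± 157 CPM with RGX-104. Scd1, the stearoyl-CoA desaturase gene, was at 514, 533, 527 and 544 CPM in controls and 901, 963, 961 and 914 CPM with RGX-104 (log2 0.82 ± 0.028, SE; edgeR adjusted p = 1.55e-17). Scd2, its more abundant paralog, was at 2835, 2979, 2961 and 2900.5 CPM against 3996, 4221, 4173 and 4078 CPM (log2 0.50 ± 0.025; edgeR adjusted p = 1.25e-13). The groups were far apart in both genes, and reads can be shared between such similar sequences.

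Lpcat3, the gene of the acyltransferase that places polyunsaturated chains in phospholipids, rose from 105 ± 4.65 to 146 ± 2.83 CPM (edgeR adjusted p = 2.52e-11). The desaturase gene Fads2 rose from 254 ± 3.38 to 320.5 ± 9.62 CPM (edgeR adjusted p = 1.68e-09). Fads1 was at 117 ± 0.549 and 121 ± 2.87 CPM and did not pass, although its groups did not overlap (edgeR adjusted p = 0.403). Srebf1, which encodes SREBP1, rose from 310.2 ± 4.30 to 527 ± 9.47 CPM (edgeR adjusted p = 1.42e-17). Side by side, the median log2 change was 0.070 for this list, -0.0099 for the 35 ER genes and 0.00072 for all tested genes. The largest absolute change among the 35 was that of Derl3 (-0.36), which did not pass. Neither the difference between the lists nor any bearing of the desaturase changes on the ER genes was tested.

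**Figure D5:**
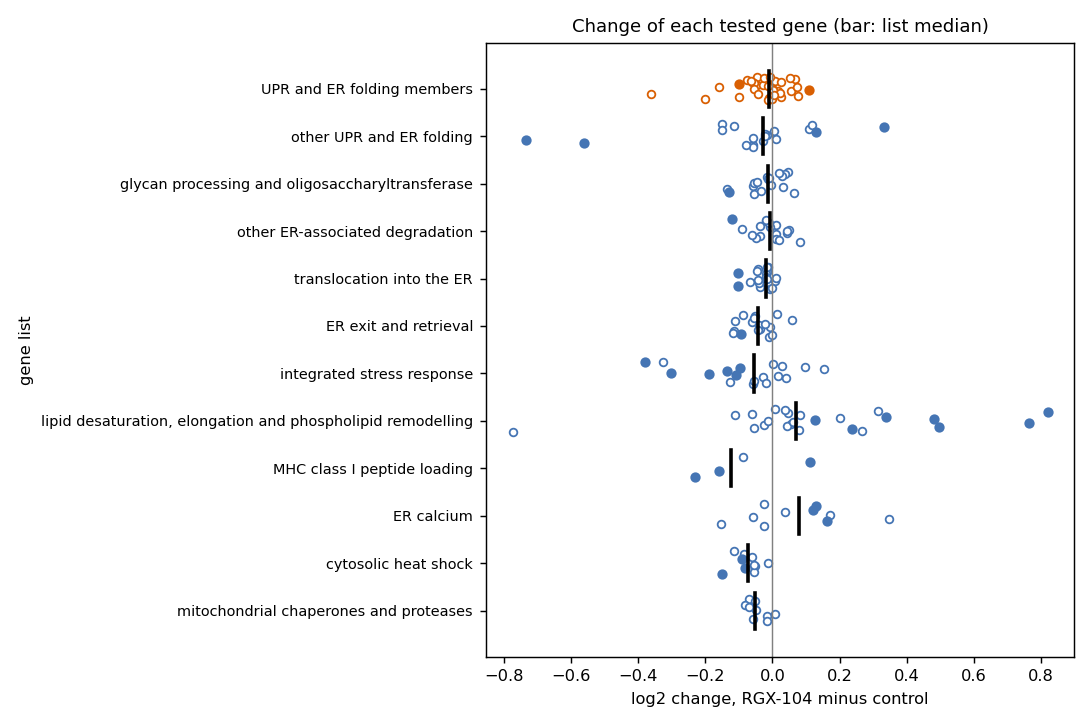
Log2 change (RGX-104 minus control, horizontal axis) of each tested gene of 12 lists (vertical axis), with the ER folding and stress genes in orange, filled points for adjusted p under 0.05 and black bars for list medians. Points of the orange row lie between -0.36 and 0.11, while the desaturation row runs from -0.775 to 0.82 (Scd1). Vertical scatter within a row has no meaning.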

How the data were processed

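The values are raw counts per gene, whole numbers as deposited by the authors in 1 table. The submitters' processing notes name GRCm38 and list DESeq2 1.4, R 4.1.0, STAR 2.7.5 and cutadapt 2.10. How reads were counted, and whether by strand, was not stated in the sources used here, so counts of the 14 genes that overlap another gene in RefSeq (Hspa5 with Rabepk, Pdia3 with Catsper2, Ppp1r15a with Tulp2 and others) are uncertain. All 8 sample columns were used.

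Genes were kept by filterByExpr of edgeR (minimum count 10, minimum total 15), which left 13290 of 41730. The primary model across all genes was made with edgeR 4.0.16 (R 4.3.3), by its robust quasi-likelihood F-test after TMM scaling, with treatment as the only term. Library totals of 30642316 to 37714355 counts set the precision. SEs came from the F statistic and 95% intervals from the t distribution with the fit's degrees of freedom. The script was tested on simulated data. Alternatives were DESeq2 1.42.0, limma-voom (limma 3.58.1) with sample weights, other scalings and filters, 1 surrogate variable (sva 3.50.0) and leaving out each library. Leaving out genes with numbered copy rows, and a block on the column numbers, were added after seeing the data.

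Values per library are printed for genes with unadjusted p under 0.05, the 3 largest changes and 13 genes set by role (Hspa5, Hsp90b1, Calr, Ern1, Eif2ak3, Atf6, Xbp1, Dnajb9, Herpud1, Pdia4, Ero1a, Sdf2l1 and Ppp1r15a). Of other lists up to 3 called genes with the largest change are named, plus 12 set genes of desaturation and ER stress. A further list of degradation genes is not reported here. Erp44 was added after its value was seen. The genes and lists were chosen with earlier results of these data known. Promoters, symbols and coordinates are from RefSeq (GRCm38.p6), where all 36 genes matched.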

Additional observations from a re-analysis of the deposited data

Results flagged for a closer look

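In 70 groups of 4 libraries checked (35 genes in 2 groups each), 3 held a library flagged by Dixon's outlier rule. The rule takes the distance to the nearest neighbour as a share of the group's range. Chance flags about 1 in 20 such groups, or 3.5 of 70. For Hyou1 it was control replicate 3 (332.6 CPM), the other controls being at 347 to 349 CPM. For Dnajb9 it was RGX-104 replicate 2 (5.94 CPM), the others of its group being at 7.41 to 7.70 CPM. For Os9 it was control replicate 1 (155 CPM), with 151.5 to 151.9 CPM in the others.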

How the results depend on the processing

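The calls among the 35 tested genes were few, so 1 gene moves the counts. The number called higher was 2 with DESeq2, with limma-voom, with upper quartile scaling, with library totals and with the filter of 1 CPM in 4 libraries, each time with Edem1 beside Dnajc10. It was 0 to 1 when 1 library was left out, with 0 without control replicate 1, RGX-104 replicate 2 or RGX-104 replicate 3. The number called lower was 2 with limma-voom and with no filter, where Ppp1r15a joined Sec61a1, and 1 to 2 when 1 library was left out, with 2 without control replicate 1, control replicate 2 or RGX-104 replicate 4. With 1 surrogate variable 425 genes were higher and 365 lower over all genes, against 640 and 549, and the cause was not tested. Upper quartile scaling gave 752 higher and 438 lower over all genes and library totals 686 and 451, with the median of all genes moved to 0.013 and 0.012. Over 18 alternatives 6 of the 35 genes were called at least once and 1, Sec61a1, in every one. The sign changed in at least 1 alternative in 12 genes, none of them called in any fit. Summed levels moved past the spread of the controls for degradation genes with library totals (1.61%) or without Edem1 (-1.15%, against 0.852%), for the translocon without Sec61a1 (-0.0859%, against -5.74%) and the phosphatase subunits without Ppp1r15b (-10.4%, against -2.49%). The labels give the groups no shared replicate numbers, but the table's columns are numbered 1 to 4 in each group. Deviations from the group means correlated at 0.141, 0.0746, 0.043 and 0.157 between same-numbered columns over 13290 genes, and every library but control replicate 3 correlated best with its own number, a hint from the data and not the design. A replicate block on these numbers, chosen after seeing the data, gave 2 of the 35 genes higher (Dnajc10 and Edem1) and 4 lower (Sec61a1, Hyou1, Creld2 and Ppp1r15a), and 1109 higher and 906 lower over all genes. Derl3, at 33 to 60 counts, had an interval past 1.2-fold, and so had Derl2, at 53 to 87 counts. The copy row of Derl2 held at most 1 count. A low level of Derl2 cannot be told apart from reads left uncounted in both rows.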

Other observations

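Some chaperone genes outside the ER fell with RGX-104. Of 10 tested cytosolic heat shock genes 0 were called higher and 3 lower (4.82% and 4.13% of all tested genes), with all 10 estimates below 0 and a median log2 change of -0.073. Hsph1, which encodes an Hsp110 exchange factor, fell from 441 ± 19.6 to 397 ± 9.15 CPM, and the constitutive Hsp70 gene Hspa8 from 2364 ± 68.6 to 2218 ± 12.5 CPM (SD, n = 4; edgeR adjusted p = 0.00143 and 0.0191). Hsp90ab1, the most abundant of the list, fell from 7936 ± 252 to 7494 ± 153 CPM (edgeR adjusted p = 0.0409). Mitochondrial chaperone and protease genes had 8 of 9 estimates below 0 (median -0.052) and 0 called by edgeR, with 3 lower at an unadjusted p under 0.05 (10.7% of all tested genes). The ER paralogs of the cytosolic genes, Hspa5 and Hsp90b1, changed by -0.054 and -0.0099. Whether the compartments differ was not tested. The scaling moved the median of all genes to 0.013 at most, and the changes of the cytosolic and mitochondrial genes were not read under other scalings. Over 18 alternative fits the sign of Hspa5 changed in 0 and that of Hsp90b1 in 4.

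ER calcium genes had 3 of 10 called higher and 0 lower (4.82% and 4.13% of all tested genes). They were Selenok (0.16), Orai1 (0.13), which encodes the pore of store-operated calcium entry, and the inositol trisphosphate receptor gene Itpr1 (0.12; edgeR adjusted p = 0.00498, 0.0186 and 0.0349). Of 7 genes listed in connection with MHC class I peptide loading, a process that uses Calr and Pdia3, 4 were tested. Tapbpl (-0.23) and Erap1 (-0.16) were lower and Nlrc5 (0.11) was higher (edgeR adjusted p = 1.11e-06, 5.25e-04 and 0.0293).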
